A study of Mus musculus with 6 samples.

Results

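The chaperone genes of the mouse macrophage line RAW264.7 were followed through exposure to AEPS, a polysaccharide from the roots of the plant Actinidia eriantha. The control group had DMEM medium alone and the AEPS group had 50 µg/ml AEPS, both for 4 h, with 3 samples each of the same established line. Members were all genes on the 1-colour Agilent array with a non-control probe whose symbol began with Hspa, Hspb, Hspd, Hspe, Hsph or Hsp and a digit, or with Dnaja, Dnajb or Dnajc and a digit. This gave 73 genes with 104 probes, of 23517 named genes on the array. The rule used symbols and no measured value. It took in 40 HSP40 genes (J-domain cochaperones), 9 HSP70, 3 HSP110, 3 HSP90, 8 mitochondrial chaperone genes and 7 small heat shock genes. The 3 others, Hspb11, Hspbp1 and Hspbap1, carry such symbols but encode an intraflagellar transport protein and binding partners of chaperones.

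HSP70 proteins hold unfolded stretches of other proteins in cycles of ATP hydrolysis. J-domain proteins bring them clients and start the hydrolysis, HSP110 proteins release the ADP, and HSP90 finishes the folding of kinases and receptors. The endoplasmic reticulum (ER) and the mitochondrion hold chaperones of their own, and small heat shock proteins hold denatured proteins without ATP. Activated macrophages secrete many proteins, which are folded in the ER. The transcription factor HSF1 is the known switch of the heat-inducible chaperones.

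In each group the scanner files labelled replicate 1 and replicate 2 were the same array deposited under both names, and were counted as 1 sample. That left 4 distinct arrays, 2 per group, on 2 slides with 1 control and 1 AEPS array on each. The authors' deposited value table holds 3 distinct columns per group, 2 of which are these arrays, and its replicate 3 columns matched no scanner file. Between 55.4% and 58.7% of 59305 non-control spots were well above background on the 4 arrays. All 8 macrophage markers were above background on every array, and 1 of them, Fcgr1, fell (limma log2 difference -1.49, adjusted p = 0.0344). Of the 4 epithelial markers 3 were above background on no array. Of 4 fibroblast markers Col1a2 was so on all, Col3a1 on 2 (log2 difference -1.46, adjusted p = 0.0539) and Col1a1 and Dcn on none, and the summed signal was 98.9 to 222 in controls and 81.2 to 208 with AEPS. Of 5 T cell markers Cd3e and Cd4 were above background throughout, and the list's summed signal was 7472 to 12563 in controls and 8095 to 13200 with AEPS. Among B cell markers Ms4a1 was above background on no array and Cd79a on all. Cd79b moved with the groups, from signals of 28.5 and 22.9 in controls to 255 and 225 with AEPS (limma log2 difference 2.59, adjusted p = 0.0125). The part of such markers in the results was not tested. The labels do not state whether the samples were separate cultures. The p-values therefore reflect only the scatter among these samples, which may be technical.

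Most chaperone genes were present in RAW264.7 cells and all tested ones but Dnajb4 differed by less than 2-fold between AEPS and control. Values above 0 were the more common among ER genes, at 90% of 10. They made up 68.8% of the 32 tested HSP40 genes, and 66.7% of the 3 HSP110 and of the 3 HSP90 genes. The ER genes are counted in those families as well. Of the 73 genes, 59 could be tested, meaning that a probe was well above background on both arrays of at least 1 group. All but 1 of these 59 were above background on all 4 arrays, the other being Dnajc8, with 1 flagged spot, fitted on 3 arrays. Levels are given as log2 of the processed signal relative to the 75th percentile of its array, and differences as AEPS minus control with limma's moderated SE (n = 2 distinct arrays per group). By limma with Benjamini-Hochberg adjustment over 25939 features, 2 chaperone genes rose, Dnajb4 and Dnajc13, and 0 fell. An unadjusted p under 0.05 was met by 21. No share of all features is given for that count, so it cannot be read as a result about these genes. Of all tested features 7.11% were called at the same adjusted p of 0.05, 4.17% as higher and 2.93% as lower. The median log2 difference of the 59 genes was 0.15, with 35 above 0, against a median of -0.19 over all features, of which 36.7% lay above 0. Leaving out 1 array moved the chaperone median between 0.06 (without the second AEPS array) and 0.25 (without the second control array), with 0.08 without the first control array. On slides 1 and 2 the chaperone median was 0.12 and 0.14, and that of all features -0.11 and -0.24. These differences are relative to the scaling. Scaled to the 280 spike-in spots, the median of all features was 0.47 and that of the chaperones 0.82. All 59 lay above 0, as did 84.5% of all features. Each chaperone gene below 0 on the percentile scale thus turned positive under spike-in scaling, the smallest being Hspb9 and Hspbp1 at 0.01. In bulk RNA like this, fewer cells of a kind and less RNA per cell cannot be told apart.

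Samples with the same replicate number paired, and the pairing changed the counts. With the slide as a replicate block 16 chaperone genes passed as higher and 3 as lower, where 29.8% of all features passed, 13.0% as higher and 16.8% as lower. In the authors' table, 22 passed as higher and 4 as lower, beside 33.4% of all features, 17.1% higher and 16.4% lower. With the replicate block in that table the counts were 25 and 7, beside 49.8% of all features, 23.5% higher and 26.4% lower. All 16 genes called higher on the blocked arrays were among the 22 of the table, 100% of the former and 72.7% of the latter, though the table includes the same 4 arrays. Every AEPS sample lay above every control sample of the table for 28 genes and below for 9, while 22 overlapped. Over all features 23.4% lay wholly above and 24.7% wholly below. No chaperone gene was called by limma, in either direction, when any 1 of the 4 arrays was left out, whether it was the first or second control or AEPS array. Only 7 to 790 of all features were called in those fits, in which 1 group had a single array and its spread was taken from the other.

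**Figure D1:**
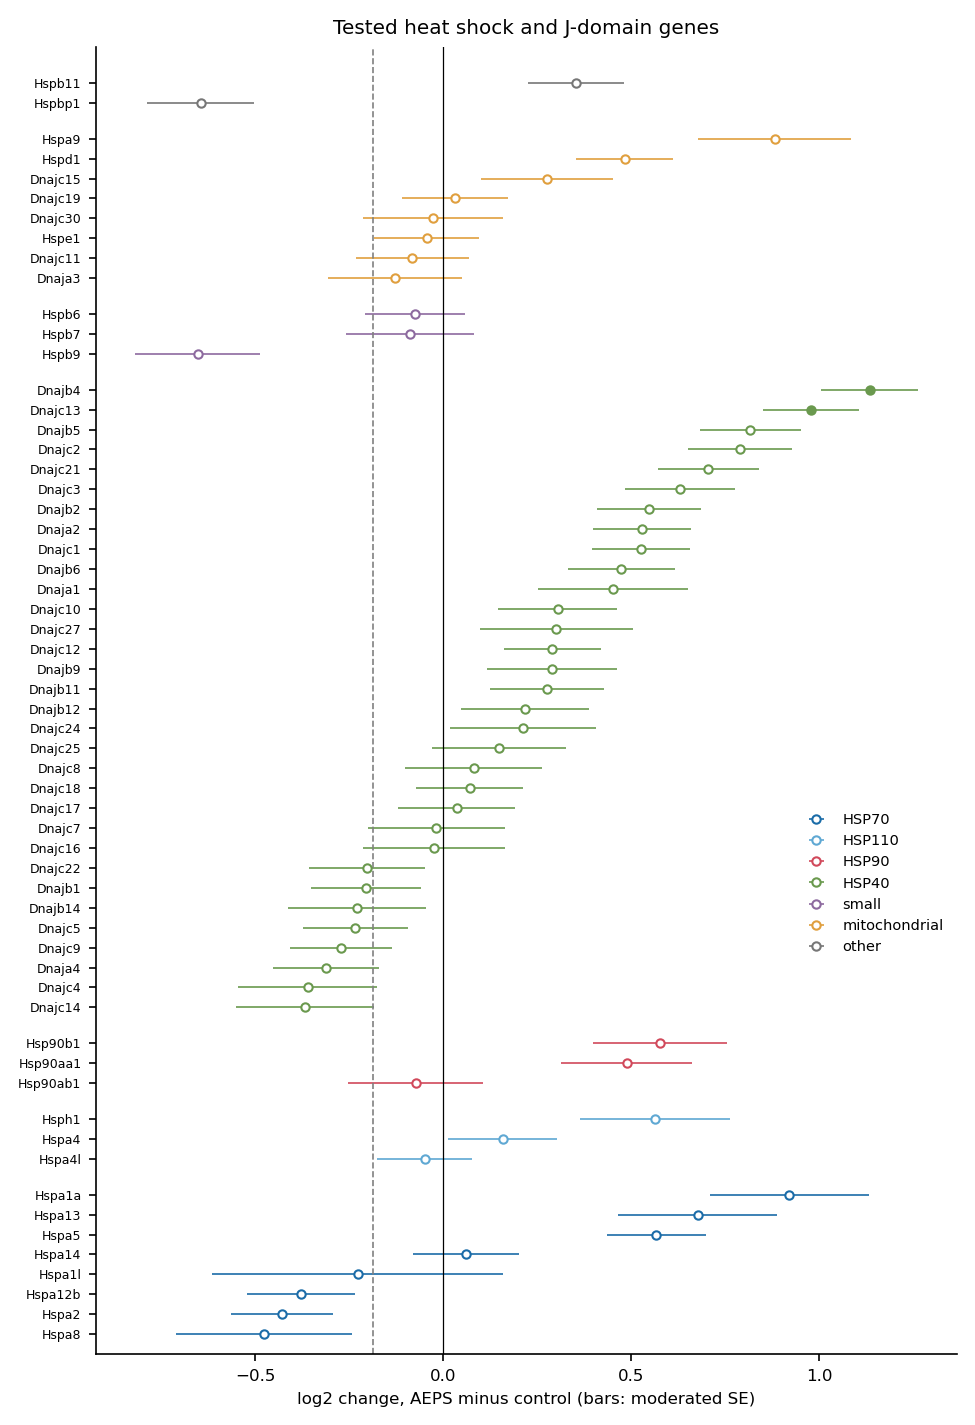
Log2 difference between AEPS and control for the 59 tested heat shock and J-domain genes, grouped and coloured by family, with moderated SE as bars (2 distinct arrays per group). Filled points passed an adjusted p of 0.05, the dashed line is the median of all 25939 features at -0.19, and values run from -0.65 for Hspb9 to 1.13 for Dnajb4.

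The 8 tested HSP70 genes, which include Hspa5 and Hspa13 of the ER, had a median of -0.08, with 4 above 0. Of the other 6, the stress-inducible Hspa1a stood higher with AEPS, Hspa14 lay near 0 and 4 lay between -0.48 and -0.23. Hspa1a was at -3.34 and -2.97 on the control arrays and at -2.39 and -2.09 on the AEPS arrays. The groups did not overlap, although both were dim. The difference was 0.92 ± 0.21 with an adjusted p of 0.0793 by limma, 0.0337 with the replicate block and 0.0331 in the authors' table. After normexp background correction it was 0.26 (limma adjusted p = 0.264). That correction adds a constant of 50 to each signal, above this probe's control signals of 39.5 and 36.5. The constant by itself shrinks differences of dim probes, so the smaller value cannot decide whether this one holds. Its single probe, on the minus strand of chr17:35107117-35107176 of mm9, lies in the coding sequence and also lists RefSeq transcripts of the near-identical neighbour Hspa1b, so both genes may share this signal. It is the only one of the 104 probes listing more than 1 gene, and is shown in 5′ to 3′ order. No probe carries the symbol Hspa1b.
Hspa1a probe: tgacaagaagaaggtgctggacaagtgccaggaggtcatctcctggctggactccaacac

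Hspa8, which encodes the constitutive cytosolic HSP70, gave a different answer from each of its 3 probes. The probe at base 2044 of the transcript, which stood for the gene as the brightest, read 9.64 and 10.12 in controls and 9.27 and 9.54 with AEPS. That difference was -0.48 ± 0.23 (limma adjusted p = 0.245, and 0.0615 with the block). Before scaling, this probe's signals were 319348 and 320056 in controls and 354634 and 362671 with AEPS, and it was not flagged as saturated. Whether a limit at the bright end bears on the difference was not tested. The probe at base 1812 differed by 0.07, and the probe at base 730 read 4.89 and 5.21 in controls against 5.88 and 6.14 with AEPS, a difference of 0.96. In the authors' table the same 3 probes, in that order, differed by -0.11, 0.31 and 0.91. The 2 probes within the coding sequence lie on the plus strand of mm9 at chr9:40611142-40611201 and, across a splice junction, chr9:40612755-40613050, and are printed to let the disagreement be followed up.
Hspa8 probe at base 730: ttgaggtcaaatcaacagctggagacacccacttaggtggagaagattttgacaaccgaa
Hspa8 probe at base 1812: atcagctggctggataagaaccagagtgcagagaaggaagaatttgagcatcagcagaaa

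Hspa2, a form known from the testis, and Hspa12b, a distant relative known from endothelium, were among the 5 lowest differences. Hspa2 was at -1.76 and -1.64 in controls and -2.16 and -2.09 with AEPS, a difference of -0.43 ± 0.14 (limma adjusted p = 0.127, and 0.0471 with the block). Hspa12b differed by -0.38 ± 0.14 (adjusted p = 0.167), but by -0.07 in the authors' table, where its samples overlapped. Hspa14, a ribosome-associated form, differed by 0.06 and the testis form Hspa1l by -0.23, and Hspa12a was above background on no array. Of the 3 HSP110 exchange factors, Hsph1 read 4.40 and 4.64 in controls and 4.90 and 5.27 with AEPS. Its difference of 0.56 ± 0.20 had a limma adjusted p of 0.151, and 0.0431 with the block. Its 2 probes differed by 0.56 and 0.58. Hspa4 differed by 0.16 ± 0.14 and Hspa4l by -0.05 ± 0.13, and neither passed on the arrays with or without the block, though Hspa4 did in the table with the block (limma adjusted p = 0.0458) and with spike-in scaling (adjusted p = 0.0488).

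Of the cytosolic HSP90 genes the inducible one lay higher with AEPS in both sources, and the constitutive one overlapped on the arrays only. Hsp90aa1, the inducible cytosolic form, read 4.02 and 4.28 in controls and 4.54 and 4.74 with AEPS. The groups did not overlap, and the difference of 0.49 ± 0.17 had a limma adjusted p of 0.152, 0.0435 with the block and 0.00767 in the authors' table. Hsp90ab1, the constitutive form, read 8.71 and 8.99 in controls against 8.66 and 8.88, overlapping, with a difference of -0.07 ± 0.18 (adjusted p = 0.796). In the authors' table its controls, at 17.07, 17.07 and 17.11, all lay below its AEPS samples at 17.18, 17.23 and 17.34. Its sign was not stable, since the difference was 0.17 in that table (adjusted p = 0.133), 0.13 with quantile normalization and 0.02 after normexp correction. Hsp90b1, the ER form, is described with the ER genes.

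J-domain genes held the 2 calls, 6.25% of the 32 HSP40 genes tested outside the mitochondrion, where 4.17% of all features were called higher. Of these 32 genes 22 lay above 0, where 36.7% of all features did. Their median difference was 0.25, or 0.27 on slide 1 and 0.25 on slide 2. Dnajb4, a cytosolic class B protein also called HLJ1, read -3.00 and -3.04 in controls and -1.90 and -1.87 with AEPS. It rose by 1.13 ± 0.13, or 2.19-fold (limma adjusted p = 0.0317, and 0.0337 with the block). In the authors' table its control samples were at 5.25, 5.53 and 5.58 and its AEPS samples at 6.53, 6.86 and 6.85, so no samples overlapped in either source. The probe is dim, with signals of 50.2 and 34.9 in controls and 154 and 133 with AEPS. After normexp correction the difference was 0.39 with a limma adjusted p of 0.141. The constant of 50 added there by itself shrinks differences at such signals, so this value cannot decide how large the rise is. It lies in the coding sequence on the minus strand of chr3:151849464-151849523 of mm9.
Dnajb4 probe: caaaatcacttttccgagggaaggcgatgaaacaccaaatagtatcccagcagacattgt

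Dnajc13, a J-domain protein of endosomes that sorts membrane receptors, read -1.07 and -1.09 in controls and -0.09 and -0.12 with AEPS. It rose by 0.98 ± 0.13, or 1.97-fold (limma adjusted p = 0.0378, 0.0337 with the block and 0.0186 after normexp correction). The table's controls were at 7.37, 7.47 and 7.85 and its AEPS samples at 8.46, 8.46 and 8.72. The groups were thus apart in both sources. Dnajb5, a class B protein related to Dnajb1, read 0.00 and 0.07 in controls and 0.80 and 0.90 with AEPS, a difference of 0.82 ± 0.13 just short of the threshold (limma adjusted p = 0.0516, and 0.0338 with the block). Its other probe, at base 3197 of the transcript against base 2198, differed by -1.65, with the second control array at -0.55 and the other control at -2.86.

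Class A proteins deliver unfolded clients to HSP70, and the cytosolic Dnaja1 and Dnaja2 stood higher with AEPS. Dnaja2 read 3.72 and 3.70 in controls and 4.20 and 4.27 with AEPS, a difference of 0.53 ± 0.13 (limma adjusted p = 0.0875, and 0.0424 with the block). Dnaja1 differed by 0.45 ± 0.20 (limma adjusted p = 0.211, and 0.0449 with the block). Second probes of these genes gave 0.63 each. That of Dnaja1 was dim, with signals of 22.7 and 10.4 in controls and 52.4 and 26.1 with AEPS. It was not well above background on the second control array. Because it entered the test only through the AEPS group, its sign lends no support to that of the first probe. Dnaja4 differed by -0.31 ± 0.14. Dnajb6, known for holding back the aggregation of polyglutamine proteins, differed by 0.47 ± 0.14 (adjusted p = 0.117, and 0.0474 with the block), and its 4 probes by 0.43 to 0.82. Dnajb1, the classic heat-inducible HSP40, did not follow them. It read 4.68 and 4.84 in controls and 4.49 and 4.62 with AEPS, a difference of -0.21 ± 0.15 (limma adjusted p = 0.387), with a table p of 0.042 only under the block. Dnajc2, a ribosome-bound protein that acts with Hspa14, and Dnajc21, a ribosome assembly factor, were singled out after their values were seen. They differed by 0.79 ± 0.14 and 0.70 ± 0.14 (limma adjusted p = 0.0553 and 0.0625, and 0.0346 and 0.0391 with the block).

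**Figure D2:**
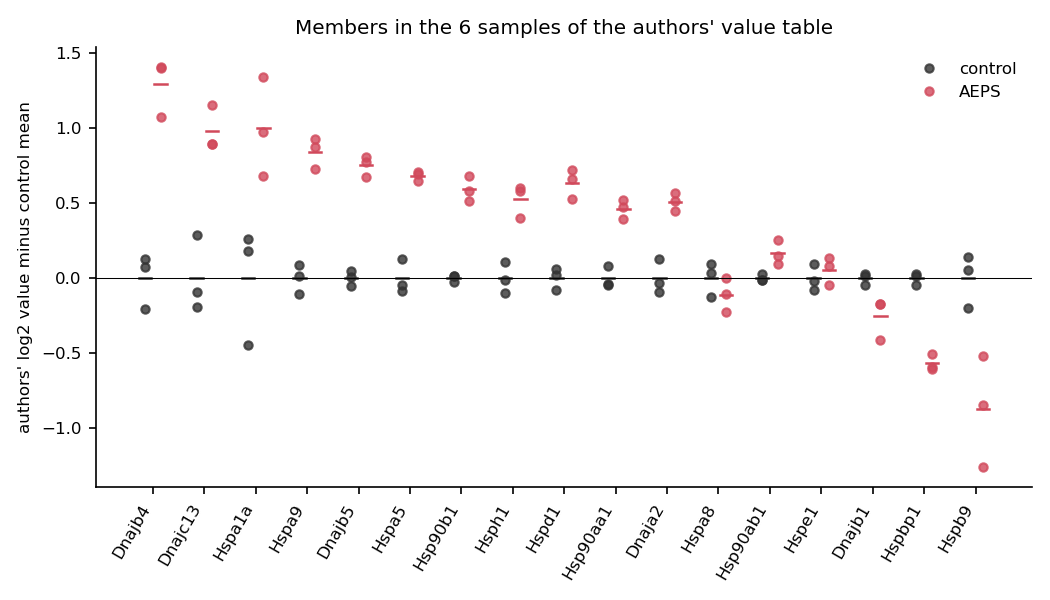
Values of 17 chaperone genes in the 6 samples of the authors' table, each point 1 sample on the table's near-log2 scale minus that gene's control mean, with short lines for group means. For Dnajb4, Dnajc13, Hspa1a and Hspa9 the AEPS samples lie above all controls, for Hspbp1 and Hspb9 below them, and for Hspa8 and Hspe1 the groups overlap.

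The ER chaperones, a second view that cuts across the families, mostly lay above 0. Of the 10 genes 9 did so, where 36.7% of all features did, and their median was 0.41, or 0.41 on slide 1 and 0.38 on slide 2. None passed by limma without the block, 2 passed as higher with it, Hspa5 and Dnajc1, beside 13.0% of all features, and 6 passed as higher in the authors' table, beside 17.1%. Hspa5, the ER HSP70 also called BiP, read 6.98 and 6.96 in controls and 7.49 and 7.58 with AEPS. Its difference was 0.57 ± 0.13 (limma adjusted p = 0.0802, and 0.0405 with the block), and its table values were 15.37, 15.16 and 15.20 against 15.95, 15.89 and 15.94. Hsp90b1, also called GRP94, differed by 0.58 ± 0.18 (adjusted p = 0.122, 0.0508 with the block and 0.00311 in the table). No sample of either gene overlapped between groups.

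Dnajc3, a J-domain protein that also restrains the kinase PERK, differed by 0.63 ± 0.15 (limma adjusted p = 0.0807, 0.0545 with the block and 0.0151 in the table). Hspa13, a microsomal HSP70, differed by 0.68 ± 0.21 (adjusted p = 0.124), though its second probe gave -0.06. The membrane protein Dnajc1 differed by 0.53 ± 0.13 (adjusted p = 0.0888, and 0.0416 with the block). The J-domain partners of BiP on the member list otherwise differed by less. Dnajc10, a disulfide reductase, differed by 0.30 ± 0.16 (limma adjusted p = 0.264). Dnajb11 differed by 0.28 ± 0.15 (limma adjusted p = 0.284, 0.0753 with the block and 0.014 in the table). Dnajb9, a target of the stress sensor IRE1, differed by 0.29 ± 0.17 (limma adjusted p = 0.316). The membrane proteins Dnajb12 and Dnajb14 differed by 0.22 and -0.23. BiP partners on the separate partner list, named after their values were seen, went both ways. Sec63, a J-domain subunit of the import channel, differed by 0.88 ± 0.18 (limma adjusted p = 0.0659, and 0.0337 with the block). The exchange factor Sil1 differed by -0.39 (limma adjusted p = 0.159, 0.0519 with the block and 0.0106 in the table). The exchange factor Hyou1 differed by -0.29 (limma adjusted p = 0.308, 0.071 with the block and 0.115 in the table).

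The promoters of 3 of these genes hold a match to the ER stress element, the paired site at which NF-Y and ATF6 are known to act. It was searched as CCAAT and CCACG with any 9 bases between them, on both strands, in RefSeq windows of build GRCm38.p6 that run from 250 bases before to 50 after each start. Only Hspa5, Hsp90b1 and Dnajc3 among the 59 members with a window held it, while 0.137% of 27025 genes did. Their differences were 0.57, 0.58 and 0.63. The matches are in capitals, each window reading 5′ to 3′ along its gene. The Hspa5 window, chr2:34772010-34772058, is on the plus strand and ends 32 bases before the start. That of Hsp90b1, chr10:86705518-86705566, is on the minus strand, ends 74 bases before the start and has the match on the opposite strand. It is the nearer of 2 matches in that promoter, the other beginning at position -212 relative to the start. That of Dnajc3, chr14:118937812-118937860, is on the plus strand and ends 72 bases before it.
Hspa5: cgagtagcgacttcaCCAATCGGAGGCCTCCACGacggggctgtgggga
Hsp90b1: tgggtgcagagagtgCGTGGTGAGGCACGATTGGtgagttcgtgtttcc
Dnajc3: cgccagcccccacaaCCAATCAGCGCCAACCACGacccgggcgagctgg
A match is a description of letters and not a bound site.

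In the mitochondrion the import and folding HSP70 Hspa9, or mortalin, stood out. It read 4.76 and 5.05 in controls and 5.62 and 5.95 with AEPS, a difference of 0.88 ± 0.20 (limma adjusted p = 0.08, 0.0337 with the block and 0.00205 in the authors' table). The table's controls lay at 13.22, 13.34 and 13.41 and its AEPS samples at 14.05, 14.25 and 14.20, well apart. The 8 mitochondrial genes as a group had a median of 0.00, with 4 above 0, and of 0.02 and 0.01 on slides 1 and 2. Of the J-domain proteins of this compartment Dnajc15 differed by 0.28 (limma adjusted p = 0.34, 0.0772 with the block and 0.0261 in the table). Dnajc19 differed by 0.03 and Dnajc30 by -0.03. Dnajc11 and Dnaja3, which partners Hspa9, differed by -0.08 and -0.13.

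Hspd1 and Hspe1 encode the 2 parts of the chaperonin, the HSP60 barrel and its HSP10 lid, and are read in opposite directions from 1 shared promoter. Hspd1 read 6.58 and 6.60 in controls and 7.05 and 7.09 with AEPS, a difference of 0.48 ± 0.13 (limma adjusted p = 0.0984, 0.0422 with the block and 0.0038 in the table). Hspe1 read 8.10 and 8.21 against 8.05 and 8.17, overlapping, a difference of -0.04 ± 0.14 (adjusted p = 0.844). The 3 Hspe1 probes gave -0.04, 0.05 and 0.14, and none reached the Hspd1 difference. Whether the 2 differences differ from each other was not tested. Heat shock elements, repeats of the unit GAA and its reverse complement that HSF1 is known to bind, lie between the starts. The stretch at chr1:55088053-55088082 (GRCm38.p6) is shown on the strand of each gene, with GAANNTTC and TTCNNGAA matches in capitals. It ends 66 bases before the Hspe1 start and 121 bases before 1 of 2 listed Hspd1 starts, the other lying upstream of the stretch.
Hspd1: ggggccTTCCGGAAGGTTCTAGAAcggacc
Hspe1: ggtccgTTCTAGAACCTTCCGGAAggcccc

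Heat shock elements were looked for in all 59 members with a promoter window, 47 of them tested. GAANNTTC was present in 13 members (22.0%, against 9.04% of 27025 genes), TTCNNGAA in 6 (10.2%, against 9.60%), and either in 15 (25.4%, against 17.0%). Each motif reads the same on both strands, and the 2 overlap in a 3-unit form, GAANNTTC followed by NNGAA. That form, searched on both strands, was in 4 members, Dnajb6, Hspd1, Hspe1 and Hsph1, and in 0.662% of genes. The 11 tested members with either form had a median difference of 0.45, 8 of them above 0, and the 36 without it a median of 0.07. Dnajb1, with a difference of -0.21, had no match in its windows, which says only that these letters are not there.

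The stretches of 5 of these genes are printed because, with Hspd1, they had the 6 largest differences among tested members with an element, a choice made on those values, with matches in capitals and each read 5′ to 3′ along its gene in GRCm38.p6. Hspa1a is at chr17:34972238-34972275 on the minus strand, and Dnajb4 at chr3:152193846-152193874 on the minus strand, just before 1 of its 2 listed starts. Hsph1 is at chr5:149636347-149636384 on the minus strand, Dnajb6 at chr5:29735837-29735879 and Dnaja1 at chr4:40722329-40722366, both on the plus strand. The 3-unit match of Hsph1 lies after its start and is not shown.
Hspa1a: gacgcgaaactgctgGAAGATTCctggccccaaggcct
Dnajb4: ttcgttcgttcgctgTTCTAGAAagtaca
Hsph1: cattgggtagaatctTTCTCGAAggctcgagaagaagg
Dnajb6: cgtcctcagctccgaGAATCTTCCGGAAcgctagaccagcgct
Dnaja1: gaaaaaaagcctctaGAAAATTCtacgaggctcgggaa
Their differences were 0.92, 1.13, 0.56, 0.47 and 0.45 in this order, of which Dnajb4 alone passed limma without the block.

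The small heat shock genes that met the symbol rule were mostly below background in this line. Of these 7, Hspb1, Hspb2 and Hspb3 were above background on no array, and Hspb8 only on the second control array. Hspb1 encodes HSP27, a major inducible small protein of other cells, and AEPS did not bring it above background on either array. Hspb6 and Hspb7 differed by -0.08 and -0.09, and the median of the 3 tested was -0.09. Hspb9, known from the testis, had the lowest difference of all 59 genes. It read -0.23 and -0.01 in controls and -0.88 and -0.67 with AEPS, a difference of -0.65 ± 0.17 (limma adjusted p = 0.0917, 0.0354 with the block and 0.0267 in the table). The table's controls were at 8.28, 8.53 and 8.62 and its AEPS samples at 7.63, 7.96 and 7.22. Cryab, a small heat shock gene whose symbol falls outside the rule, is on the partner list. It was above background on all 4 arrays and differed by -0.33 ± 0.18 (limma adjusted p = 0.276).

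Hspbp1, a nucleotide exchange factor that dampens HSP70 cycles, read 5.16 and 5.25 in controls and 4.48 and 4.64 with AEPS. The groups were apart on the arrays and in the table. Its difference of -0.65 ± 0.14 had a limma adjusted p of 0.075, 0.036 with the block, 0.048 after normexp correction and 0.00275 in the table. Hspb11 differed by 0.35 ± 0.13 (limma adjusted p = 0.155, and 0.0162 in the table), and did not pass on the arrays with the block. Hspbap1 was above background only on the first AEPS array. Of the 14 untested genes 11 were above background on no array, among them Dnajb3, Dnajb7, Dnajb8, Dnajb13, Dnajc6 and Dnajc28, and Dnajc5b was so on 1 array of each group by its brighter probe.

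Probes of the same gene disagreed often enough to bear on the values above. Of 20 genes with more than 1 tested probe, 9 had probes of opposite sign and 7 had probes more than 0.5 apart. Dnajb5, Hspa8 and Dnajb2 spread most. The probes of Dnajb2, a neuronal cochaperone, gave 0.55 and -0.55, and those of Dnajc5, a synaptic vesicle protein, ran from -1.14 to -0.09. The -0.55 and the -1.14 came from dim probes, with signals of 30.3 to 50.6 and of 13.9 to 30.4. The dimmer of these, of Dnajc5, was not above background on the first AEPS array. The other Dnajc5 probes gave -0.68, -0.23 and -0.09. Dnajc21 gave 0.70 and 1.47, the same sign. With the mean of a gene's probes in place of the brightest, 3 genes passed limma as higher, beside 4.08% of all features. Hspa8 was then at 0.18 and Dnajb5 at -0.41. Spots of 1 probe scattered far less, for Dnajc11 and Hspb7, printed 8 to 10 times per array after flagging, by an SD of 0.04 to 0.13 on the log2 scale.

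**Figure D3:**
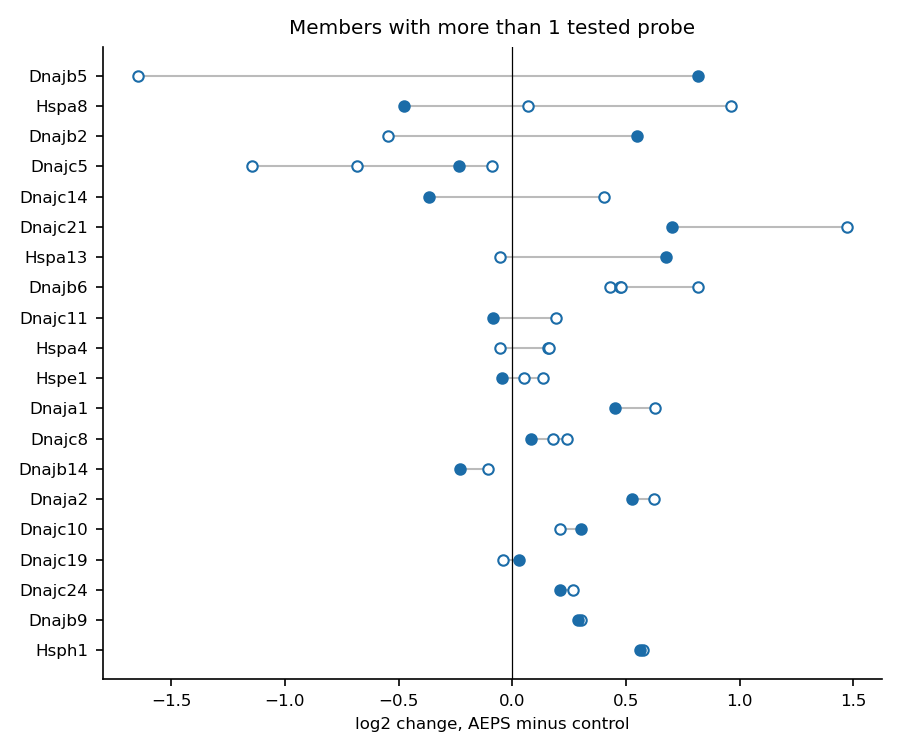
Log2 difference between AEPS and control for every tested probe of the 20 chaperone genes with more than 1, ordered by spread, with the probe that stands for the gene filled. Probes of Hsph1 and Dnajb9 coincide, while those of Dnajb5 and Hspa8 lie on both sides of 0.

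Cochaperones and other partners outside the symbol rule were taken from a list of 39 genes, of which 38 were tested. By limma 4 rose and 1 fell, where 4.17% of all features were called higher and 2.93% lower. With the replicate block 10 were higher and 5 lower, beside 13.0% and 16.8% of all features. In the authors' table, 13 were higher and 8 lower, beside 17.1% and 16.4%. All 4 that rose belong to the cytosolic chaperonin CCT, the ring that folds actin and tubulin. Tcp1 read 4.17 and 4.27 in controls and 5.37 and 5.43 with AEPS and rose by 1.18 ± 0.13 (limma adjusted p = 0.0314). Cct6a rose by 1.09 ± 0.15, Cct8 by 0.92 ± 0.15 and Cct4 by 0.91 ± 0.14 (adjusted p = 0.0413, 0.0493 and 0.0448). The 8 CCT subunits were all above 0, with a median of 0.80, or 0.84 on slide 1 and 0.75 on slide 2, but Cct5 and Cct7 differed by only 0.15 and 0.12.

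Bag2, an HSP70 exchange factor that inhibits the ubiquitin ligase Stub1, was the partner that fell. It read 2.13 and 2.22 in controls and 0.96 and 1.15 with AEPS, a log2 difference of -1.12 ± 0.15 (limma adjusted p = 0.0378), and of -0.46 with spike-in scaling, where it did not pass. Bag3, which joins HSP70 to small heat shock proteins for autophagy and is itself an HSF1 target, differed by -0.48 ± 0.15 (adjusted p = 0.117, and 0.0432 with the block). Hsf1 differed by -0.31 ± 0.17 (limma adjusted p = 0.288, 0.0804 with the block and 0.0283 in the table). Stip1, the adaptor between HSP70 and HSP90, differed by 0.10 ± 0.18 (adjusted p = 0.727). Serpinh1, the collagen chaperone of the ER, was not above background in either group and was not tested. When any 1 array was left out, no partner passed in either direction, in fits that called only 7 to 790 of all features.

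**Figure D4:**
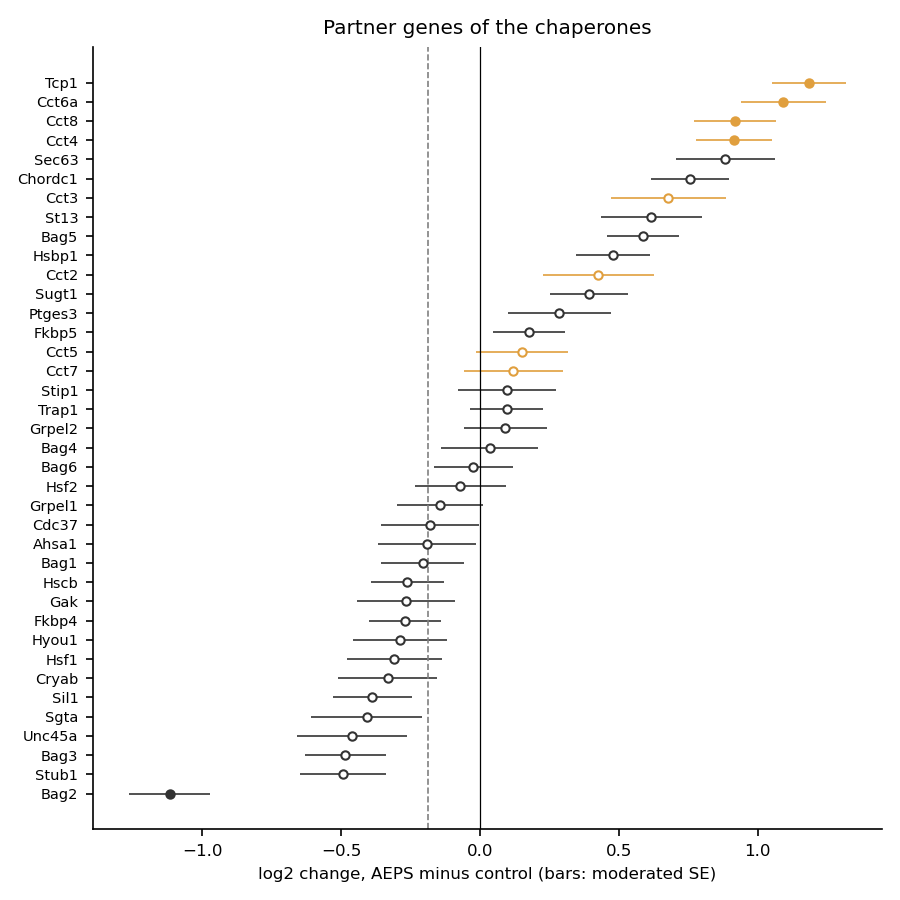
Log2 difference between AEPS and control for the 38 tested partner genes with moderated SE as bars (2 distinct arrays per group), CCT subunits in orange and filled points past an adjusted p of 0.05. Tcp1, Cct6a, Cct8 and Cct4 lie highest and Bag2 lowest, and the dashed line marks the median of all 25939 features.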

How the data were processed

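Scanner output came from Agilent Feature Extraction 10.7.1.1, per the file headers. The deposited scanner files hold a processed intensity per spot, after background subtraction and detrending, with no normalization between arrays. The authors' deposited value table is close to log2 of that intensity. Its sorted columns differed by at most 0.01, each with a median of 4.71, as after quantile normalization, and how its offset was set is not stated. The scanner files of replicate 3 matched the replicate 2 columns of that table by rank. Gene symbols, probe sequences and mm9 coordinates came from the files of replicate 3, the only ones that carry symbols.

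Here control spots and flagged spots were left out, spots of a probe averaged, and each array's log2 values centred on its 75th percentile. Probes entered the test when both arrays of at least 1 group had them well above background, and a gene was represented by its brightest tested probe. Groups were compared with limma 3.58.1 in R 4.3.3 (lmFit, eBayes, Benjamini-Hochberg over 25939 features, threshold 0.05) without covariates, and figures were drawn with matplotlib 3.10.9. Pairing was checked by the correlation, across features, of deviations from group means. Same-numbered samples of the table gave 0.56, 0.36 and 0.40, other pairs -0.48 to 0.23, and arrays of a slide 0.59, so the replicate number was used as a block in an alternative fit. Alternatives were normexp correction with an offset of 50, quantile normalization, scaling to 280 spike-in spots, the authors' table, other filters, the mean of a gene's probes and leaving out each array. Levels of the table and the arrays are on separate scales.

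Members, groups and partner genes were chosen with earlier results of these data known. Named were all genes past the threshold, the 5 largest rises and falls among members above background on every array, and a set list of 25 member symbols and 3 partners. Other genes were named after their values were seen. On simulated data with 25939 features the fit was tested for recovery. With 200 changed features 0% were recovered, and with 2000 changed features 43.9% of 2-fold and 76.6% of 4-fold changes were, with 78 false calls. The number of arrays limits the precision.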

Additional observations from a re-analysis of the deposited data

How the results depend on the processing

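Counts moved with the processing while most directions did not. Features called were 1843, 58.7% of them higher, and 7721 with the replicate block (43.6% higher), 4586 after normexp (41.4%), 2904 with quantile normalization, 6075 with spike-in scaling (96.9%), 8675 in the authors' table and 12929 there with the block, 0 without a filter on dim probes and 7 to 790 with 1 array left out. Members called higher and lower were 2 and 0, against 16 and 3 with the block, 11 and 1 after normexp, 5 and 1 with quantile normalization, 29 and 0 with spike-ins, 22 and 4 in the table, 25 and 7 there with the block, 4 and 0 with probes above background on every array, and 0 and 0 with no filter or with any 1 array left out. Partners, 4 and 1, were 10 and 5 with the block, 9 higher after normexp, 16 and 0 with spike-ins, 13 and 8 in the table, 15 and 11 there with the block, and 0 and 0 with no filter or with 1 array left out. With probes above background on every array 2256 of 23696 features were called, 5.39% of those tested as higher. With the mean of probes 1808 features were called, 4.08% of those tested as higher. Spike-in scaling lifted the median of all features from -0.19 to 0.47. It lifted the medians of HSP70 to 0.57, HSP110 to 0.82, HSP90 to 1.15, HSP40 to 0.93, small to 0.57 and mitochondrial genes to 0.66. The median of all members was 0.06 to 0.25 with 1 array left out, 0.09 with the mean of probes and 0.03 without a filter. The mean of probes put HSP70 at 0.12, no filter put HSP40 at 0.11, and leaving out 1 array gave HSP40 0.13 to 0.34 and HSP70 -0.11 to 0.0885. Falls are therefore relative to the percentile scaling: spike-ins turned Dnaja3 to 0.53, Dnajb1 to 0.45, Hsp90ab1 to 0.58, Hspa12b to 0.28, Hspa2 to 0.23, Hspa8 to 0.18, Hspb9 to 0.0055, Hspbp1 to 0.0135, Hspe1 to 0.61, Bag3 to 0.17 and Hsf1 to 0.35. The mean of probes turned Dnajb5 to -0.41, Hspa8 to 0.18 and Hspe1 to 0.0487. Hsp90ab1 and Hspe1 also turned, to 0.0227 and 0.0498 after normexp, 0.13 and 0.0645 with quantile normalization, 0.17 and 0.0567 in the table with or without the block, 0.0647 and 0.0119 without the second control array, and 0.0361 and 0.0117 without the first AEPS array. With 1 array left out Hsp90ab1 ranged from -0.21 to 0.0647, Hspe1 from -0.10 to 0.0119 and Dnaja3 from -0.27 to 0.0146 (without the first AEPS array). Stip1 was at -0.0309 without the first control and -0.0176 without the second AEPS array. The cause of these turns was not tested. Signal over background limits dim members such as Dnajb4 and Hspa1a, and the differences of Dnajb9, Dnajc27, Hspa13 and Dnajc3 were also smaller after normexp, at 0.10, 0.17, 0.48 and 0.47. The offset of 50 in that correction by itself shrinks differences of dim probes.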
